A study of Homo sapiens with 6 samples.

Results

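Isolated H2A.Z regions are sites of the histone variant that stand alone in the genome. They were defined by merging overlapping or touching peaks of ubiquitylated and total H2A.Z and keeping the autosomal regions whose midpoint had no other region's midpoint within 50 kb on either side. This left 3886 of 190587 autosomal regions (2.04%) and of 198179 regions in all. The peaks themselves chose the members, so the emptiness around them is not a result. HEK293T, an established cell line from human embryonic kidney, was analysed by chromatin immunoprecipitation and sequencing after micrococcal nuclease digestion for 30 minutes. All 6 samples came from cells that received plasmids for H2A.Z-1 with a C-terminal Flag-BirA fusion and for AviTag-ubiquitin, at a ratio of 3 to 1, and that were harvested 48 hours later. They formed 3 groups of 2: streptavidin pull-down (ubiquitylated H2A.Z), Flag pull-down (total H2A.Z) and histone H3. The tagged histone and ubiquitin were supplied by transfection in every group, so the sites are those of the introduced H2A.Z-1 and not of the endogenous protein, and 2 reagents recovered the 2 forms.

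H2A.Z replaces canonical H2A in nucleosomes that flank active promoters, enhancers and insulators, where chromatin remodelling complexes of the SWR1 family exchange it. A fraction carries ubiquitin on lysines near its C-terminus, placed by the RING-type ligase of Polycomb repressive complex 1. This form is known from facultative heterochromatin such as the inactive X chromosome. BirA is a biotin ligase that modifies the AviTag peptide, so that streptavidin recovers chromatin holding biotinylated ubiquitin. Promoter and enhancer clusters tend to carry H2A.Z on many nucleosomes close together, whereas an isolated region stands alone in a long stretch without a called site.

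The nearest other region lay at a median of 73.4 kb from an isolated region (quartiles 58.7 and 102 kb), against 1.25 kb over all autosomal regions. The more distant of the neighbours on the 2 sides lay at a median of 140 kb. For 1024 isolated regions the nearest region was over 100 kb away, and for 152 it was over 200 kb away. Only 26 had a neighbour more than 1 Mb away on either side, and 5 were the first or last region of their chromosome. The 3 members closest to the limit were chr8:82753780-82754279, chr3:31222914-31224144 and chr14:86050928-86051170, at 50011, 50012 and 50015.5 bp from their neighbours. The 3 regions that just missed it were chr4:35802394-35803131 and chr4:35852666-35852859, which lay exactly 50000 bp apart, and chr12:34175468-34175798 at 49979.5 bp.

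The most distant member was chr9:7934684-7934954, a region of 271 bp with a ubiquitylated peak alone, which had no other region within 1128 kb. It was followed by chr18:40376147-40376438 with peaks of both lists (793 kb), chr7:61821674-61822041 with a ubiquitylated peak alone (654 kb) and chr9:11366813-11367008, also with a ubiquitylated peak alone (546 kb). At chr4:28516682-28517482, 537 kb from its neighbour, the authors' deposited table placed a ubiquitylated peak of 801 bp on the ubiquitylated side (log2 fold change 0.75, FDR 0.00072). At chr15:48010079-48010703, 460 kb from its neighbour, the authors' deposited table placed a total H2A.Z peak of 625 bp on the total side (log2 fold change -1.07, FDR 5.7e-06). The other 4 of the 10 most distant regions, with 1 region taken from each pair of neighbours, were chr18:15330110-15331595, chr2:205861270-205861780, chr15:46372227-46372381 and chr3:60499946-60500279, at 427 to 464 kb, and none of these was in a differential list. The regions chr7:61821674-61822041 and chr18:15330110-15331595 bordered stretches of 3893 and 3360 kb without any region. Whether such stretches hold sequence to which reads can be mapped was not tested.

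A smaller share of isolated regions than of all regions held peaks of both lists. Peaks of both lists were present in 1079 isolated regions (27.8%, Wilson 95% interval 26.4 to 29.2%), against 41.9% of all autosomal regions. Ubiquitylated peaks alone were present in 1476 (38.0%, 36.5 to 39.5%, against 28.5%) and total H2A.Z peaks alone in 1331 (34.3%, 32.8 to 35.8%, against 29.5%). The share with both was lower among isolated than among all regions on all 22 autosomes, and the share with ubiquitylated peaks alone was higher on 21 of 22. The intervals take regions as independent and cover counting error only. The lists hold no value per library, so a test over samples could not be made, and because the class comes from the same peaks that chose the members, these shares are a description.

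The change in makeup was gradual along the number of neighbours. The share with both lists was 29.4% for regions with 1 neighbour within 50 kb, 38.5% with 10 to 19 and 55.2% with 40 or more. The share with ubiquitylated peaks alone ran the other way, from 38.0% at 0 neighbours through 32.0% at 2 to 27.5% at 40 or more. The share with total H2A.Z peaks alone had no such course, since it stayed between 33.9 and 37.4% up to 19 neighbours and was 17.3% at 40 or more. Within the isolated regions, the 152 with a nearest region over 200 kb away had ubiquitylated peaks alone in 46.7% (39.0 to 54.6%) and peaks of both lists in 21.1% (15.3 to 28.2%).

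**Figure D1:**
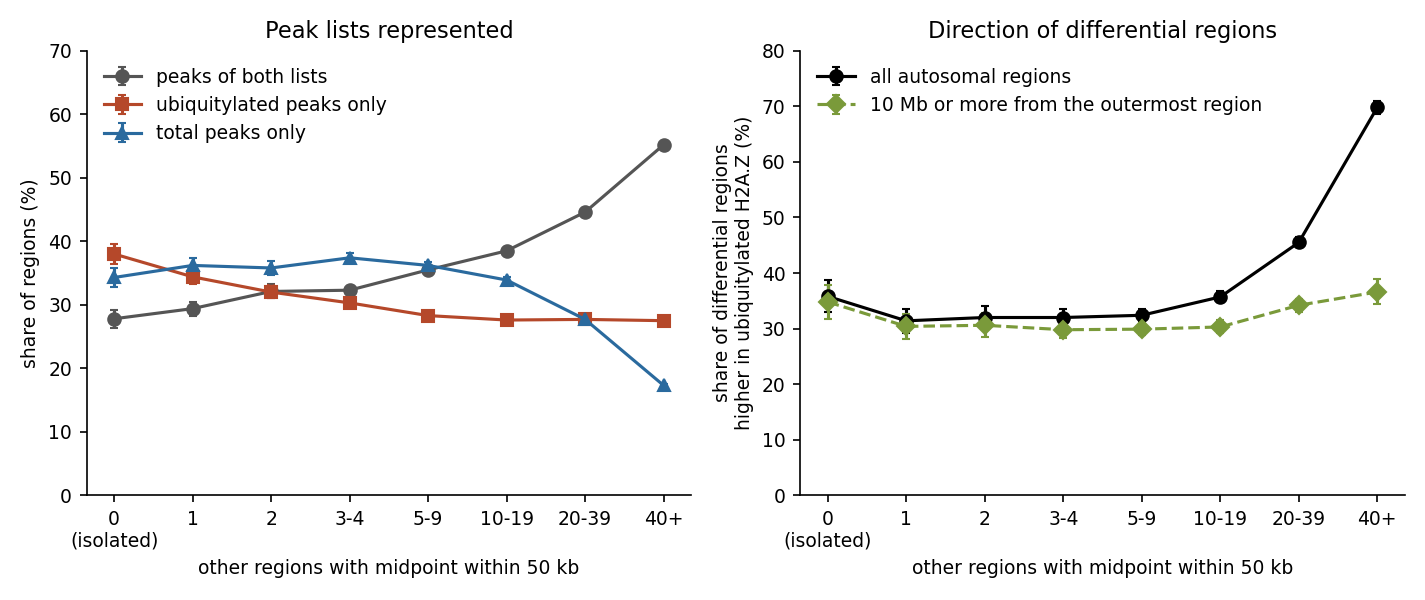
Share of autosomal regions with peaks of both lists or of 1 list (left, %) and share of differential regions on the ubiquitylated side (right, %), by the number of other regions with a midpoint within 50 kb; bars are Wilson 95% intervals. Isolated regions (0 neighbours) hold peaks of both lists in 27.8% of cases against 55.2% at 40 or more neighbours, and at 40 or more neighbours 69.8% of differential regions are on the ubiquitylated side, or 36.6% with the outer 10 Mb of each chromosome left out.

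Isolated regions were mostly small. Their median width was 288 bp (quartiles 206 and 445 bp), against 314 bp (219 and 490 bp) over all autosomal regions, and 885 of them (22.8%, against 18.6%) were under 200 bp, close to the length of a single nucleosome with its linker. A single peak made up 2807 (72.2%) and 2 peaks made up 1041 (26.8%). Regions with few neighbours were as small, with medians of 291 bp at 1 neighbour, 289 bp at 2 and 281 bp at both 3 to 4 and 5 to 9, against 387 bp at 40 or more. Together the isolated regions covered 1376 kb of the 78815 kb of all autosomal regions. The lower median went with the classes: isolated regions with peaks of both lists had a median width of 427 bp, against 425 bp over all such regions. Isolated regions with ubiquitylated peaks alone were at 256 bp against 276 bp, and those with total H2A.Z peaks alone at 265 bp against 251 bp.

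A few isolated regions were broad. Of the isolated regions, 69 were over 1000 bp (1.78%, against 4.94%) and 21 were 1500 bp or more. The widest was chr6:83073101-83075592 (2492 bp, 1 peak of each list), which the authors' deposited table placed on the total side (log2 fold change -0.57, FDR 5.1e-05). Next came chr1:143913834-143916160 with 2327 bp (-0.60, FDR 7.9e-06 in the authors' deposited table). The third was chr7:79081396-79083620 with 2225 bp, which held a total H2A.Z peak alone (-0.63, FDR 1.3e-05 in the authors' deposited table). The other 2 of the 5 widest, chr12:43944453-43946509 (2057 bp) and chr9:103790402-103792220 (1819 bp), held peaks of both lists and were in neither differential list.

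Peaks in isolated regions had higher values of the number by which the authors graded the agreement of replicates. This number was read as the IDR (irreproducible discovery rate). A low value marks a peak that ranks high in both replicates. Whether it is the local form, for each peak, or the global form, over the ranked list, is not stated. The 2574 ubiquitylated peaks in isolated regions had a median IDR of 0.00267, against 0.00137 for all autosomal ubiquitylated peaks, and 72.9% of them were at or under 0.01, against 83.1%. The 2432 total H2A.Z peaks had a median of 0.00458, against 0.00334, with 69.6% at or under 0.01, against 74.2%. The higher values held within classes. Ubiquitylated peaks in isolated regions of both lists had a median IDR of 0.00141 against 0.000989, and those without a counterpart 0.00450 against 0.00227. For total H2A.Z these medians were 0.00400 against 0.00295, and 0.00527 against 0.00401.

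The isolated peaks of lowest IDR were ranked among isolated peaks alone. The lowest ubiquitylated value, 1.77e-07, was at chr3:168562799-168564372, a ubiquitylated peak of 1574 bp with no total H2A.Z counterpart and no other region within 301 kb. The authors' deposited table placed it on the ubiquitylated side (log2 fold change 1.05, FDR 7e-14). The next ubiquitylated peaks were chr10:16338935-16339413 (IDR 2.73e-07), chr1:248597018-248597653 (3.88e-07), chr5:16335546-16336272 (3.89e-07) and chr5:155754042-155754295 (4.52e-07). The lowest total H2A.Z peaks were chr2:178257112-178257460 (IDR 2.81e-06), chr1:207494480-207495670 (3.49e-06), chr1:66737572-66737948 (3.73e-06), chr5:16335534-16336067 (5.71e-06) and chr14:81999722-82000180 (7.64e-06). The region chr5:16335534-16336290 thus supplied a peak to both sets, and it was in neither differential list. Of the 5 lowest total H2A.Z peaks, 4 lay in regions that also held a ubiquitylated peak. The authors' deposited table placed 4 of the 5 on the total side, with log2 fold changes of -0.86 to -0.51. It also placed the ubiquitylated peaks on chromosomes 10 and 1 on the ubiquitylated side (0.93 and 0.57). Over all isolated regions 16.7% were on the total and 9.29% on the ubiquitylated side, against 12.4 and 9.23% of all autosomal regions. The IDR and the fold change come from the same libraries, so each ranking favours its own side.

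The study's contrast set ubiquitylated against total H2A.Z. The authors' deposited table called 1009 isolated regions differential at an FDR of at most 0.05 (26.0%, 24.6 to 27.4%), where 21.6% of all autosomal regions were. Of the isolated regions, 648 (16.7%) were higher in total H2A.Z, against 12.4% of all autosomal regions, and 361 (9.29%) were higher in ubiquitylated H2A.Z, against 9.23%. With the outer 10 Mb of each chromosome left out, 25.9% of isolated regions were called, against 22.1% of all. There the shares were 16.9% against 15.1% on the total side and 9.02% against 6.99% on the ubiquitylated side, so that isolated regions were above the background on both sides. The share called was higher among isolated than among all regions on 19 of 22 autosomes. The fold changes are relative to the authors' normalization, which no source used here describes, and an effect of the reagent, streptavidin or Flag, cannot be told apart from one of ubiquitylation.

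Among regions called differential, the median change was larger at isolated regions than over all autosomal regions in both directions. The 2877 isolated regions in neither list have no fold change in the deposited data. The medians are therefore conditional on the FDR limit and do not describe isolated regions in general. For the 361 isolated regions on the ubiquitylated side, the authors' deposited table holds log2 fold changes with a median of 0.83 (quartiles 0.66 and 1.11, highest 3.05), against 0.68 over all autosomal regions of this side. On the total side the median of the 648 in the authors' deposited table was -0.84 (quartiles -1.05 and -0.65, extreme -2.49), against -0.76. Regions with few neighbours lay in between, with medians of 0.77 and -0.81 at 1 neighbour and 0.76 and -0.81 at 2. At 40 or more neighbours the medians were 0.58 and -0.67, so the larger change was not particular to isolated regions. The authors' deposited table held changes of 2-fold or more at 314 isolated regions (8.08%, against 3.89% of all), 122 on the ubiquitylated side (3.14%, against 1.43%) and 192 on the total side (4.94%, against 2.46%). They made up 33.8% of the isolated regions called higher in ubiquitylated H2A.Z, against 15.4% of all such regions. At an FDR under 0.01 the authors' deposited table held 663 isolated regions (17.1%, against 12.4%), 215 on the ubiquitylated side (5.53%, against 5.07%) and 448 on the total side (11.5%, against 7.29%). Fold changes fell with width in isolated and in all regions alike. For isolated regions up to 200 bp the medians in the authors' deposited table were 1.06 and -1.08, and for those over 800 bp 0.55 and -0.62. Over all autosomal regions of these widths they were 0.99 and -0.96, and 0.51 and -0.53.

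The strongest isolated regions on the ubiquitylated side were single peaks. All 10 of lowest FDR held 1 ubiquitylated peak and no total H2A.Z peak, and they were 238 to 1574 bp wide. Regions with ubiquitylated peaks alone made up 91.4% of all isolated regions on this side, so this count is near the share of any such set. The first in the authors' deposited table was chr4:190381789-190382513 (log2 fold change 2.13, FDR 7.3e-23), which is 87.6 kb from its nearest neighbour. The second, chr18:44984758-44985278, had a log2 fold change of 2.85 (FDR 5.4e-21) and the third, chr8:36773460-36773993, one of 1.93 (FDR 7.8e-20) in the authors' deposited table. The fourth was the region of 1574 bp on chromosome 3 with the lowest IDR. The next 6 were chr2:227220365-227220740, chr3:5749209-5749446, chr8:69501750-69502202, chr16:7921976-7922274, chr4:132347111-132347495 and chr8:108852325-108853018, with FDR from 1.6e-13 to 4.7e-10 in the authors' deposited table. Of these, chr3:5749209-5749446 had the largest log2 fold change of all isolated regions, 3.05 in the authors' deposited table, over only 238 bp. Regions at chr18:65794590-65794821 (2.39) and chr8:83006084-83006308 (2.38) completed the 5 largest changes in the authors' deposited table. Isolated regions were 2 of the 12 autosomal regions of lowest FDR on this side and 31 of the first 1000. They were 361 of all 17591 autosomal regions on this side, and the difference from that share was not tested.

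The 10 isolated regions of lowest FDR on the total side were 398 to 1033 bp wide. The first in the authors' deposited table was chr1:111505787-111506554 (768 bp, log2 fold change -1.35, FDR 8.4e-11). It was followed by chr1:70687192-70687722 (log2 fold change -1.45) and chr2:142887554-142888586 (1033 bp), both at an FDR of 2.3e-10 in the authors' deposited table. The other 7 were chr10:70231341-70232365, chr20:1099305-1099809, chr3:112280069-112280744, chr6:80713627-80714122, chr19:21265070-21265492, chr19:23869494-23869891 and chr12:69140002-69140702. Of these 10, the region at chr3:112280069-112280744 held a peak of each list, and the others held total H2A.Z peaks alone. The largest changes were at chr6:49431126-49431308, 183 bp wide (log2 fold change -2.49), chr6:90348280-90348504 (-1.95), chr2:150443836-150444133 (-1.85), chr12:69080798-69081130 (-1.82) and chr16:20911190-20911364 (-1.81) in the authors' deposited table. All 5 of these were total H2A.Z peaks alone. Regions with total H2A.Z peaks alone made up 78.2% of all isolated regions on this side. Of the 314 isolated regions with changes of at least 2-fold, only 5 held peaks of both lists. The chromosome 12 region of this set and the last of the 10 by FDR, chr12:69140002-69140702, are neighbours 59.4 kb apart, and both were higher in total H2A.Z. No isolated region was among the 12 autosomal regions of lowest FDR on this side, and 42 were among the first 1000. Isolated regions were 648 of all 23662 autosomal regions on this side, and the difference from that share was not tested.

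**Figure D2:**
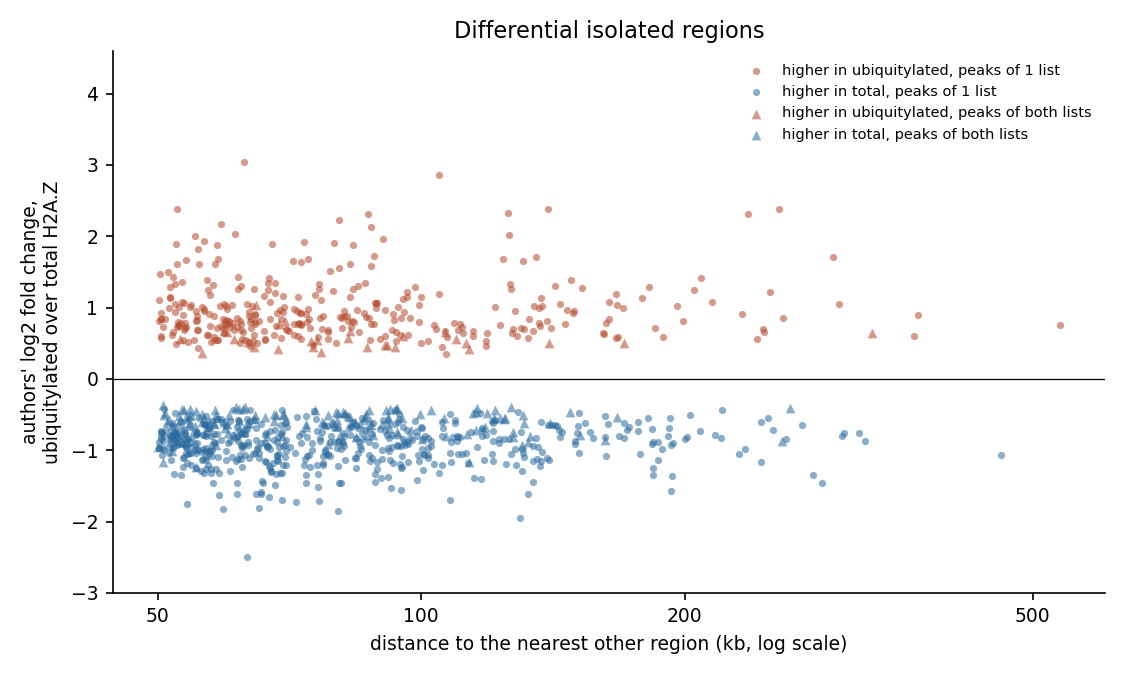
The authors' log2 fold change of ubiquitylated over total H2A.Z (y axis) for the 1009 differential isolated regions against the distance to the nearest other region in kb (log scale); colours give the direction and triangles mark regions with peaks of both lists. Regions of both directions occur in every distance class, values run from -2.49 to 3.05, and regions with peaks of both lists have medians of 0.54 and -0.59.

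The direction went with the peaks that the region held. Isolated regions with ubiquitylated peaks alone were higher in ubiquitylated H2A.Z in 330 of 1476 cases and higher in total H2A.Z in 5. Those with total H2A.Z peaks alone were higher in total H2A.Z in 507 of 1331 cases and higher in ubiquitylated H2A.Z in 1. The peak calls and the fold changes come from the same libraries, so this is not separate evidence of either. Called regions made up 38.2% of isolated regions with total H2A.Z peaks alone, against 31.0% of all such regions. For ubiquitylated peaks alone the share was 22.7% against 23.8%, and with the outer 10 Mb left out it was 22.4% against 21.2%, the opposite order. Among the 1079 isolated regions with peaks of both lists, 136 were on the total and 30 on the ubiquitylated side, so that 18.1% (13.0 to 24.6%) of the differential regions of this class were on the ubiquitylated side. Over all autosomal regions of this class the share was 43.2%. With 10 Mb at each chromosome end left out, these shares were 17.5% (12.3 to 24.3%) and 27.6%. Changes at called isolated regions with both peaks were small, with medians of 0.54 and -0.59 in the authors' deposited table. Over all called autosomal regions of this class they were 0.50 and -0.56, so the small size was not particular to isolated regions.

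Of all 1009 differential isolated regions, 35.8% (32.9 to 38.8%) lay on the ubiquitylated side, against 42.6% over all autosomal regions. Among changes of at least 2-fold the shares were 38.9% of 314 isolated and 36.7% of all differential regions, the opposite order. This order also turned around once chromosome ends were left out. Only 8.72% of isolated regions, but 34.5% of all autosomal regions, lay within 10 Mb of the outermost region of their chromosome. Farther in, the share on the ubiquitylated side was 34.8% (31.8 to 37.9%) of differential isolated regions and 31.6% of all differential regions. Within 5 Mb of the outermost region the shares were 36.6% of 41 isolated and 73.3% of all differential regions. At 10 to 20 Mb they were 39.2 and 33.8%, and beyond 40 Mb both were 30.5%. The direction at isolated regions thus had a narrower range across these distance classes, 30.5 to 54.2%, than that of all regions, 30.5 to 73.3%. The highest isolated value was at 5 to 10 Mb and rests on 48 regions.

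The regions most like the isolated ones are those with few neighbours. The share higher in ubiquitylated H2A.Z was 31.4% (29.3 to 33.6%) of differential regions with 1 neighbour and 32.0% (30.0 to 34.1%) with 2. The interval for isolated regions (35.8%, 32.9 to 38.8%) overlapped both, which does not show that the shares are equal. The share was 45.5% at 20 to 39 neighbours and 69.8% at 40 or more. Away from the outer 10 Mb the last 2 values were 34.2 and 36.6%. There the share was 34.8% (31.8 to 37.9%) for isolated regions and 29.8 to 30.6% in the classes from 1 to 19 neighbours. These differences were not tested. The share called fell with neighbours, from 27.8% at 1 neighbour to 17.8% at 40 or more, and isolated regions at 26.0% lay a little below the regions with 1 or 2 neighbours (27.7%). Within the isolated regions 24.5% were called at 50 to 60 kb (22.1 to 27.2%) and 27.0% beyond 200 kb (20.6 to 34.5%).

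Direction was also read against region width. Over all autosomal regions the share higher in ubiquitylated H2A.Z rose with width, from 26.7% of differential regions up to 200 bp to 63.4% of those over 800 bp. Among isolated regions it was 42.4% (34.8 to 50.4%) up to 200 bp, 42.3% (36.0 to 48.8%) at 201 to 300 bp, 21.6% (16.0 to 28.4%) at 301 to 400 bp, 33.3% (27.5 to 39.7%) at 401 to 600 bp, 41.3% (33.8 to 49.2%) at 601 to 800 bp and 30.9% (21.9 to 41.6%) over 800 bp. It therefore did not rise with width. Differential isolated regions had a median width of 359 bp on the ubiquitylated and 372 bp on the total H2A.Z side, where all autosomal ones had 511 and 362 bp. Without the outer 10 Mb of each chromosome the shares up to 200 bp were 42.3% for isolated and 22.5% for all regions, and over 800 bp 28.4 and 42.8%. The share called rose with width in both sets. It went from 16.9% up to 200 bp to 64.8% (81 of 125) over 800 bp among isolated regions, and from 12.4 to 39.5% among all. The difference between the sets was not tested.

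**Figure D3:**
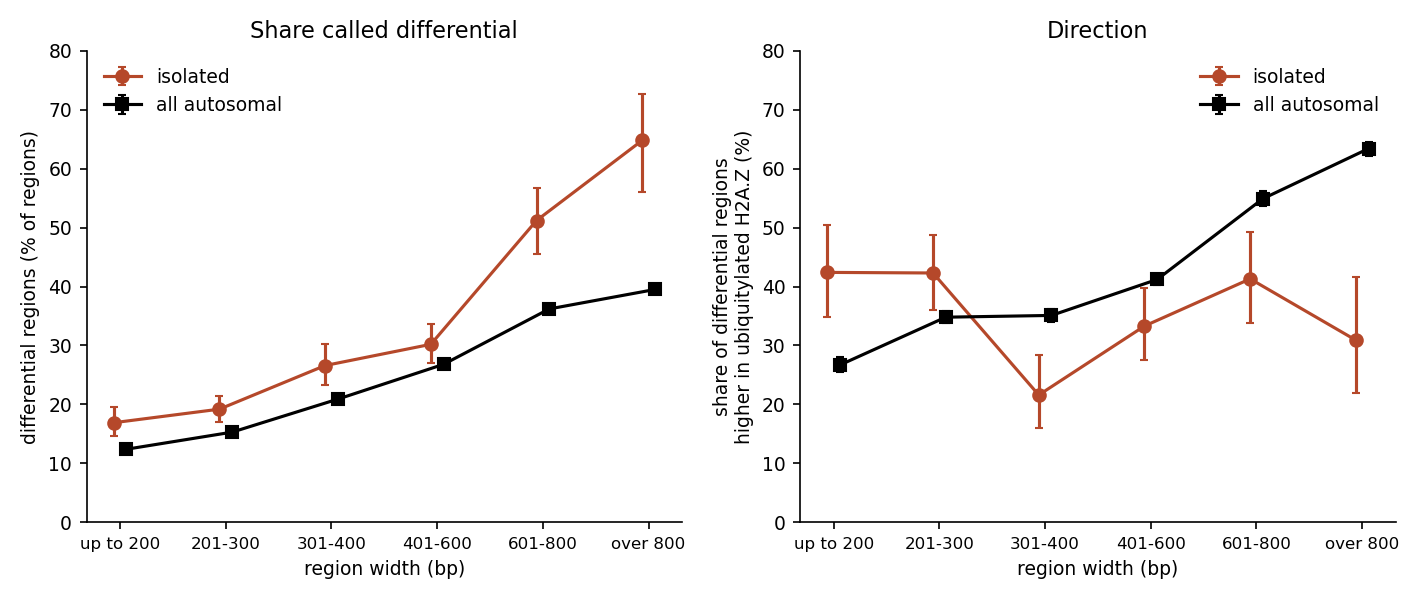
Share of regions called differential (left, %) and share of these higher in ubiquitylated H2A.Z (right, %) by region width in bp, for isolated and for all autosomal regions; bars are Wilson 95% intervals. Over 800 bp, 64.8% of isolated regions are called against 39.5% of all, and 30.9% against 63.4% of the called regions are higher in ubiquitylated H2A.Z.

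Where an isolated region held exactly 1 peak of each list, the peaks could be compared directly. There were 1041 such regions, and the centres of the peaks were a median of 18 bp apart. The offset was at most 73 bp, about the distance from the centre of a nucleosome to its edge, in 834 of them (80.1%). A median of 86.0% of the region was covered by both peaks. Median widths were 350 bp for the ubiquitylated and 362 bp for the total H2A.Z peak, and the total H2A.Z peak was the wider in 575 regions and the ubiquitylated in 451. The ubiquitylated peak had the lower IDR in 732 (70.3%). Over all 74830 autosomal regions of this kind the corresponding values were 19.5 bp, 79.0%, 84.9%, 337 and 355 bp, and 69.4%.

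Widths followed the authors' calls in these pairs. In the 29 isolated regions called higher in ubiquitylated H2A.Z the ubiquitylated peak was wider in all 29, by a median of 223 bp. In the 122 called higher in total H2A.Z the total H2A.Z peak was wider in 116, with a median difference of -131 bp. In the 890 regions in neither differential list the median difference was -3 bp. The same held over all autosomal regions of this kind. There the ubiquitylated peak was wider in 92.1% of those called higher in ubiquitylated H2A.Z (median difference 155 bp). The total H2A.Z peak was wider in 97.4% of those called higher in total H2A.Z (-155 bp). Since width and fold change come from the same reads, this describes what form the differences took. The centres were farther apart in the isolated regions called higher in ubiquitylated H2A.Z, a median of 95.5 bp against 15 bp in those in neither list. In those called higher in total H2A.Z the median was 33 bp. Over all autosomal regions of this kind these medians were 57, 17.5 and 47.5 bp.

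**Figure D4:**
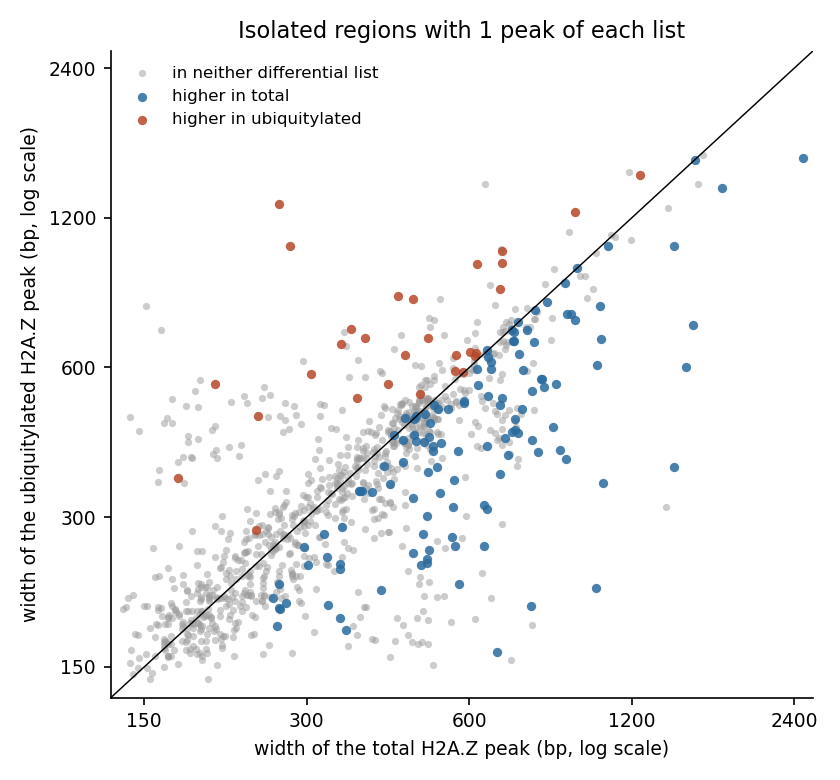
Width in bp (log scales) of the ubiquitylated peak against that of the total H2A.Z peak in the 1041 isolated regions with 1 peak of each list, coloured by the authors' differential call; the line marks equal widths. All 29 regions called higher in ubiquitylated H2A.Z lie above the line and 116 of 122 called higher in total H2A.Z lie below it.

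Isolated regions were spread unevenly over the chromosomes. Chromosome 4 held the most, 453 (7.76% of its regions, 23.7 per 10 Mb of span), followed by chromosome 2 with 369 and chromosome 3 with 317. In proportion, chromosome 18 led with 164 of 1981 regions (8.28%, 21.1 per 10 Mb). The gene-dense chromosomes had few: 27 on chromosome 19 (0.322%), 61 on chromosome 17 (0.540%) and 7 on chromosome 22 (0.0947%, 1.99 per 10 Mb). These are the chromosomes with the most regions per Mb, 142, 139 and 210, against 30.5 on chromosome 4 and 25.4 on chromosome 18. The rule sets this inverse relation, since a member needs an empty surrounding.

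The direction at isolated regions also varied by chromosome. On the 17 autosomes with at least 20 differential isolated regions, the share higher in ubiquitylated H2A.Z ran from 18.9% on chromosome 15 (10 of 53, 10.6 to 31.4%) to 56.5% on chromosome 16 (13 of 23, 36.8 to 74.4%). It was 21.7% on chromosome 1 (10 of 46), 31.6% on chromosome 4 (37 of 117), 22 of 44 on chromosome 11 and 53.1% on chromosome 14 (17 of 32). It was below the share of all regions of the chromosome on 11 of the 17. Chromosome 15 was low and chromosome 16 high over all regions too, with 30.9 and 49.9%, but the isolated share did not always follow that of the chromosome. Over all regions it was 38.8% on chromosome 1, 45.5% on chromosome 4, 46.5% on chromosome 11 and 41.5% on chromosome 14. Chromosome 8 had 59.7% over all regions and 45.3% among isolated ones. The intervals of most chromosomes overlapped.

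**Figure D5:**
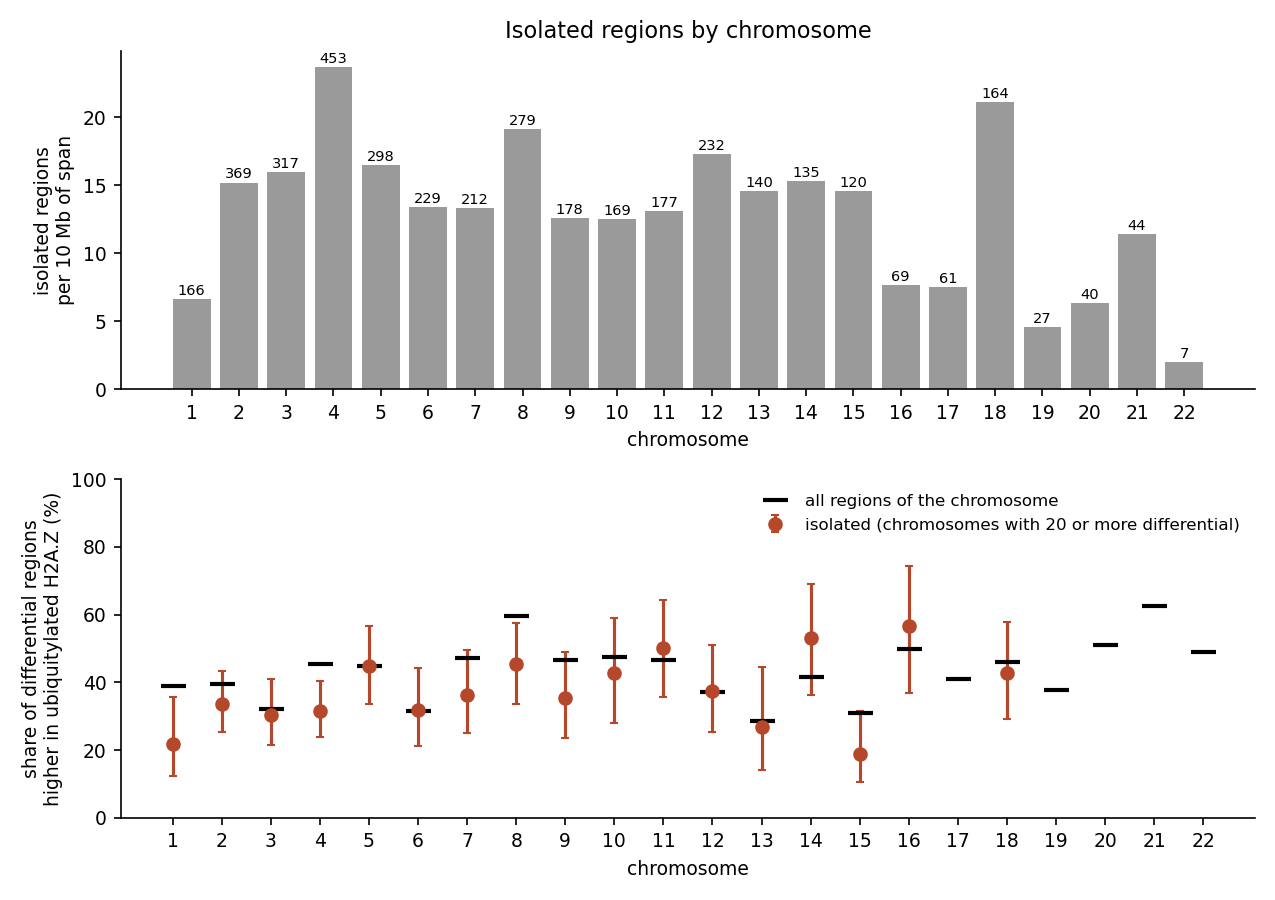
Isolated regions per 10 Mb of chromosome span, with their number above each bar (top), and share of differential isolated regions higher in ubiquitylated H2A.Z with Wilson 95% intervals beside the share over all regions of the chromosome (bottom, %). Chromosomes 4 and 18 hold 23.7 and 21.1 isolated regions per 10 Mb and chromosome 22 holds 1.99; the share runs from 18.9% on chromosome 15 to 56.5% on chromosome 16.

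Many isolated regions followed each other. The 3886 regions fell into 2409 series with no other region in between, of which 1591 were single regions and 818 held at least 2, together 2295 regions. At least 8 regions made up 13 series. The longest was chr18:39211764-43684750, 13 isolated regions over 4.47 Mb, of which 2 were higher in total H2A.Z and the other 11 in neither list. The second, chr4:187919698-190475153, held 12 regions over 2.56 Mb near the end of the long arm, 11 of them with ubiquitylated peaks alone, with 4 on the ubiquitylated and 0 on the total side. It contains the isolated region of lowest FDR. The series at chr10:36292189-38285125 had 11 regions, 8 with ubiquitylated and 3 with total H2A.Z peaks alone. At chr15:53722276-55356763 none of 10 regions was differential. At chr12:91470255-92428877, also of 10 regions, 3 were on the ubiquitylated and 1 on the total side. For comparison, 26.0% of all isolated and 21.6% of all autosomal regions were called, and 38.0% of isolated regions held ubiquitylated peaks alone. The series are small, and their differences from these shares were not tested.

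Differential isolated regions that followed each other often shared a direction. Of 215 pairs of successive differential regions that were both isolated, 145 (67.4%) had the same direction, 97 towards total and 48 towards ubiquitylated H2A.Z. Among the 105 pairs up to 200 kb apart 83 agreed (79.0%), and among the 110 pairs farther apart 62 agreed (56.4%). Pairs in which neither region was isolated agreed in 66.5% at 50 to 200 kb and in 63.7% beyond. Over all successive differential regions more than 50 kb apart the share was 65.7%. Only 35.8% of differential isolated regions were on the ubiquitylated side, so unrelated pairs would also agree more often than not. Pairs share regions, and these shares were not tested.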

How the data were processed

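Per the submitters' processing notes, Bowtie, SAMtools, MACS2 and edgeR were among the tools and hg19 was the build; neither versions nor settings are given there. Per H2A.Z form, the authors deposited 1 peak list. The fifth column, never above 0.05, was read as the IDR between replicates, of which the form, local or global, is not stated. Another 2 lists deposited by the authors give differential regions with an FDR of at most 0.05 and fold changes read as log2 values, since edgeR writes that scale; the base is not stated. Nothing in the labels says that replicates were separate cultures. The lists hold no counts, so the depth is unknown and no count model was fitted. H3 samples entered no comparison.

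Peaks that overlapped or touched were merged, and all 42574 differential regions matched a merged region exactly. Starts were raised by 1 base. Distances run between midpoints, and chromosome ends were taken from the outermost merged regions. The merging and the isolation rule were checked on simulated peaks. Wilson intervals have a level of 95%. Named regions were the 10 of lowest FDR and 5 of largest change per direction, the 10 most distant, the 5 widest, the 5 lowest in IDR per list and 3 on each side of the limit; series, broad counts and pairs were chosen after their values were seen. The members and lists were chosen with earlier results of these data known. Genes and sequence were not analysed here, since the reference tables are of another build. Scripts ran in Python 3.11.15 with matplotlib 3.10.9, pandas 2.3.3, scipy 1.17.1 and numpy 2.4.6.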

Additional observations from a re-analysis of the deposited data

How the results depend on the processing

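No paired analysis was possible because no file gives a value for a single library, and leaving out a replicate was impossible too. Of 85 alternatives over 10 results, 57 stayed within the 95% interval of the reported value, or within 1.5 times for the number of regions. The other 28 did not. A reversal of sign was looked for only in the median fold changes. Their sign is fixed by the direction that chose the regions, so no reversal could occur. The alternatives for genes were not run. Those without the outer 10 Mb were added after seeing the data, except for the direction.

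The number of isolated regions was 9870 at 25 kb and 1024 at 100 kb. At 25 kb the median IDR of ubiquitylated peaks was 0.00233. At 100 kb the share with both lists was 26.2%, with ubiquitylated peaks alone 41.2%, the median width 294 bp, the median IDR of ubiquitylated peaks 0.00319 and the median log2 fold change towards ubiquitylated H2A.Z 0.78. With peaks up to 1 kb apart merged, these were 33.0%, 33.6%, 323 bp, 0.00240 and 0.79; the share called was 32.6%, the share of these higher in ubiquitylated H2A.Z 29.6% and the median IDR of total H2A.Z peaks 0.00406. Peaks with an IDR of at most 0.01 gave 24.0% with both, 40.5% with ubiquitylated alone, 27.6% called and 296 bp. The median IDR was then 0.00130 and 0.00230, which the stricter limit lowers by construction. For this limit and for merging up to 1 kb, a region was counted as called where any differential region overlapped it. Merging can thus raise the share called by construction. Shares over all autosomal regions were not computed for these settings, so the comparison with all regions is not known there. A reciprocal overlap of 50% gave 24.8% with both. The share called was 17.1% at an FDR under 0.01 and 8.08% at 2-fold, smaller by construction, and the share of these higher in ubiquitylated H2A.Z was 32.4% and 38.9%. Among regions with peaks of both lists that share was 18.1%. At 2-fold the order against all autosomal regions (36.7%) turned. Unknown depth limits what a missing peak means.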

Other observations

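Chromosome X was outside the rule but holds isolated regions of the same kind. Of its 7493 regions, 253 had no other region's midpoint within 50 kb, with a median width of 290 bp. Ubiquitylated peaks alone were present in 53.8% of them (Wilson 95% interval 47.6 to 59.8%), against 38.0% of isolated autosomal regions. The authors' deposited table called 39 of them differential (15.4%, against 17.2% of all regions of the chromosome), 33 on the ubiquitylated and 6 on the total side, so that 84.6% (70.3 to 92.8%) were higher in ubiquitylated H2A.Z, against 77.1% over all differential regions of the chromosome. On chromosome Y 21 of 99 regions were isolated and 2 of these were differential (9.52%, against 31.3% of all its regions), both higher in ubiquitylated H2A.Z. Whether the reads placed on chromosome Y came from that chromosome was not tested. These few regions are therefore counts of placed peaks only and do not show that the cells carry H2A.Z there. These differences between chromosomes were not tested.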
